A study of Mus musculus with 6 samples.

Results

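The Serpina3 genes are a cluster of serine protease inhibitor genes (serpins) on mouse chromosome 12. Of the 34745 genes in the expression table, 6 were taken by their symbols for this account, namely Serpina3g, Serpina3f, Serpina3n, Serpina3k, Serpina3m and Serpina3c. They were selected on their counts in these 6 tumors and on their difference between genotypes, to set Serpina3g and Serpina3f, which are known from leukocytes, beside members known as secreted products of hepatocytes. Their difference between genotypes is therefore given as a description, with no test.

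RNA-seq had been run on liver tumors of Prmt3 f/f mice (labelled WT, replicates 7, 66 and 71) and of Prmt3 LKO mice (labelled Prmt3-KO, replicates 92, 93 and 94), with 1 library per tumor. Values per tumor are given in this order throughout, Prmt3 f/f first. Both groups carried floxed Prmt3 and had received the carcinogen diethylnitrosamine (DEN, 25 mg/kg) at 2 weeks of age and 10% carbon tetrachloride (CCl4, 0.5 ml/kg) from 6 weeks. Tumors were taken at 26 weeks. In Prmt3 LKO mice, Cre driven by the albumin promoter is meant to delete Prmt3 in hepatocytes. Deletion by cell type was not measured in these data. Prmt3 encodes a protein arginine methyltransferase.

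Serpins inhibit proteases by offering a reactive loop as bait, and the cleaved serpin traps the protease in an inactive complex. Humans have a single gene of this kind, SERPINA3, which encodes the plasma acute-phase protein alpha-1-antichymotrypsin, whereas the mouse cluster has expanded by duplication, and its members differ in their loops and in the cells that make them. Serpina3k, Serpina3m and Serpina3n are made in hepatocytes and secreted. Serpina3g, also called Spi2A, works inside leukocytes, where it inhibits lysosomal cathepsins, and it is known as a target of interferon-gamma and NF-kappaB.

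Between 18440244 and 27976598 reads were counted per tumor, and 3 counts, taken as the lowest level that could be read, were worth 0.105 to 0.171 CPM (counts scaled to the TMM-adjusted library size). Prmt3 itself stood at 6.60, 8.48 and 10.2 CPM with floxed alleles alone and at 2.80, 2.03 and 3.82 CPM after deletion. Its groups did not overlap (log2 fold change -1.55, standard error 0.29, Benjamini-Hochberg adjusted p = 0.592 over 13892 genes, edgeR's quasi-likelihood test). Alb, the defining product of hepatocytes, took up to 16.1% of the counts of a tumor. The standard errors given here are the fitted log2 fold change divided by the square root of edgeR's F statistic.

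The sequence upstream of Serpina3g and Serpina3f is shown first, beside that of Serpina3n, because the cluster arose by duplication and the promoters can be lined up. RefSeq promoter windows were at hand for 8 Serpina3 genes, 4 of them among the 6 described here. Each line holds the 250 bases before the RefSeq start site, 5′ to 3′ on the plus strand of chromosome 12 (GRCm38.p6). Capitals mark letters that match one of the searched motifs on either strand, namely GAS (TTCNNNGAA, bound by STAT factors), ISRE (GAAA and GAAA parted by 2 bases), an NF-kappaB form (GGG and CC parted by 5 bases), C/EBP (TTGCNNAA), HNF1 (GTTAAT and ATTAA parted by 1 base) and a TATA box (TATAAA), and overlapping matches run together. Serpina3g is chr12:104235897-104236146, Serpina3f is chr12:104214294-104214543 and Serpina3n is chr12:104406458-104406707.
Serpina3g: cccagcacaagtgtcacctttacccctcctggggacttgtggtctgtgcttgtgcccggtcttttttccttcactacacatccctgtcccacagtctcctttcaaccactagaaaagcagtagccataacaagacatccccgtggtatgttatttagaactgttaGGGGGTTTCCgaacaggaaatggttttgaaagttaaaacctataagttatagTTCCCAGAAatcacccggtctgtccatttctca
Serpina3f: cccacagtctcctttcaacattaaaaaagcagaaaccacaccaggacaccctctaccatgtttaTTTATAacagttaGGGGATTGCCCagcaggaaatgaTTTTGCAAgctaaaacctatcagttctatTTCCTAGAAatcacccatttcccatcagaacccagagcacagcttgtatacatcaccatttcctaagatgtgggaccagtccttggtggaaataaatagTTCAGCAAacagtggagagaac
Serpina3n: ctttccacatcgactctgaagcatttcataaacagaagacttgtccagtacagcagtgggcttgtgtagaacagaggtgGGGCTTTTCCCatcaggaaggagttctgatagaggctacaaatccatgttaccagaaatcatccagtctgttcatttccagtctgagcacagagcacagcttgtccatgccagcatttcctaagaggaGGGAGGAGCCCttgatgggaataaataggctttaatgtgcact

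Both Serpina3g and Serpina3f carried a GAS match upstream of the start site. It was TTCCCAGAA at -33 to -25 in Serpina3g and TTCCTAGAA at -121 to -113 in Serpina3f. Positions are counted from the start site, with -1 as the base just before it. GAS was found in 3 of the 8 Serpina3 genes scanned, the third being Serpina3i (TTCCCAGAA at -102 to -94), and in 8.30% of all 32851 promoter windows. In each of these 3 genes an NF-kappaB form began 52 bases before the GAS match, but that form is loose and 50.8% of all windows held it. ISRE was matched in 3.44%, C/EBP in 10.8%, HNF1 in 0.0609% and the TATA box in 13.6% of all windows. The RefSeq start of Serpina3g lies 98 bases upstream of the start in the expression table, and Serpina3f has a further RefSeq start from which its match lies at -210 to -202, so these positions depend on the start used.

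Serpina3n and Serpina3c held no GAS match, but the same stretch of their promoters could be recognized by the letters ATCA after it. Among stretches followed by these letters, the one with the fewest departures from TTCNNNGAA was taken. The stretches are printed here to show where the copies differ, with the place of the GAS match in capitals and 10 bases on each side. On GRCm38.p6 they are chr12:104236104-104236132 for Serpina3g, chr12:104214413-104214441 for Serpina3f, chr12:104263010-104263038 for Serpina3i and chr12:104406575-104406603 for Serpina3n, all on the plus strand, and chr12:104153974-104154002 on the minus strand for Serpina3c.
Serpina3g: taagttatagTTCCCAGAAatcacccggt
Serpina3f: tcagttctatTTCCTAGAAatcacccatt
Serpina3i: taagtgcttgTTCCCAGAAatcacccagt
Serpina3n: caaatccatgTTACCAGAAatcatccagt
Serpina3c: taaatccataTTACCAGAAatcatccagt

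Counting from 1 at the first base of TTCNNNGAA, Serpina3n and Serpina3c each departed from the motif by a single substitution, C3A. Serpina3b, lined up in the same way, departed by 3 (T2C, C3A and G7T). In Serpina3n the stretch in capitals begins at -123, and an NF-kappaB form (GGGCTTTTCC) begins before it at -171. Such a form ahead of the stretch was thus not particular to the genes with a GAS match. A match is a run of letters, and binding at these places was not measured in these tumors.

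The 6 genes ran over 4 orders of magnitude in level. Serpina3k, Serpina3n and Serpina3m were among the abundant transcripts of the tumors, whereas Serpina3g and Serpina3f, which neighbor each other, were present at a few FPKM (counts scaled to library size and gene length, which allows levels of different genes to be compared). Serpina3c, placed with the hepatocyte-secreted members, was at the limit of reading.

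**Figure D1:**
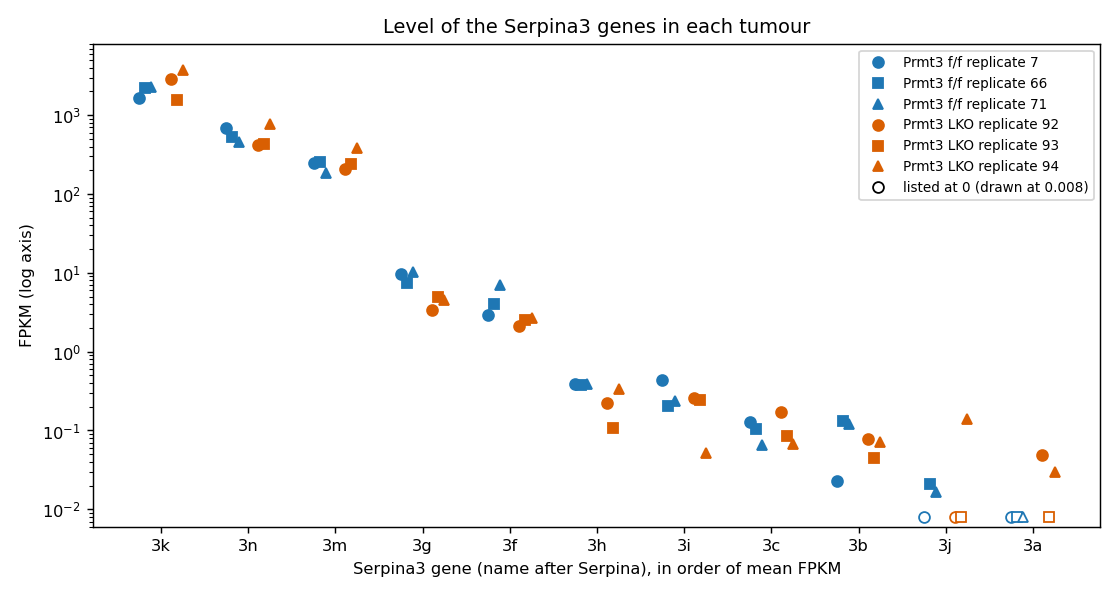
FPKM of 11 Serpina3 genes (log axis) in each of 6 tumors, with blue for Prmt3 f/f and orange for Prmt3 LKO and 1 symbol per replicate; open symbols mark genes listed at 0. Serpina3k, Serpina3n and Serpina3m stand far above Serpina3g and Serpina3f, and the other genes lie under 1 FPKM.

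Serpina3k (ENSMUSG00000058207, chr12:104338486-104346144), a contrapsin known to bind tissue kallikrein, was the most abundant, with 2392 ± 812 FPKM (SD, n = 6). Serpina3n (ENSMUSG00000021091, chr12:104406729-104414329), an acute-phase inhibitor of granzyme B and neutrophil elastase, followed at 550 ± 148 FPKM (SD, n = 6). Serpina3m (ENSMUSG00000079012, chr12:104338486-104394257), a secreted relative of Serpina3k, stood at 253 ± 67.1 FPKM (SD, n = 6). The ranges of these 3 genes over the 6 tumors did not overlap.

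Serpina3g (ENSMUSG00000041481, chr12:104236245-104241939) was next, at 6.73 ± 2.89 FPKM (SD, n = 6), a mean 37.6 times below that of Serpina3m. Serpina3f (ENSMUSG00000066363, chr12:104214544-104221129) had 3.56 ± 1.85 FPKM (SD, n = 6). The ranges of Serpina3g and Serpina3f overlapped, although within each tumor Serpina3g was the higher, by 1.46 to 3.36 times. Serpina3g had 206 to 966 counts and Serpina3f 126 to 637 counts per tumor, so both were read well above the floor.

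Serpina3c (ENSMUSG00000066361, chr12:104146382-104153870, on the minus strand) gave 6, 5 and 4 counts in the Prmt3 f/f group and 7, 4 and 3 counts in the Prmt3 LKO group. At 0.103 ± 0.0411 FPKM (SD, n = 6) it did not pass the filter on low counts, and no difference between genotypes could be read at this depth. The name of a hepatocyte-secreted member was thus not borne out for Serpina3c in these tumors, in which all the other hepatocyte-type members were abundant. Accordingly 5 of the 6 genes passed the filter.

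As a share of the summed FPKM of the 11 Serpina3 genes outside the pseudogenes named "ps", Serpina3k took 63.7% to 81.9%, Serpina3n 12.0% to 26.3% and Serpina3m 5.96% to 10.6%. Serpina3g took 0.0933% to 0.367% and Serpina3f 0.0540% to 0.242%. Together the 11 genes held 0.470% to 1.02% of all counts, the highest share being that of Prmt3 LKO replicate 94.

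Serpina3g was lower in Prmt3 LKO tumors, at 47.2% of its mean in Prmt3 f/f tumors, and Serpina3f showed the same direction at 52.9%. The secreted members did not follow them. Serpina3n was at about the same level in both groups, and Serpina3k and Serpina3m had higher means in Prmt3 LKO tumors with overlapping values.

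Serpina3g measured 31.2, 25.6 and 33.9 CPM in the Prmt3 f/f group, and 11.8, 15.6 and 15.4 CPM in the Prmt3 LKO group. Every Prmt3 LKO tumor was lower than the lowest Prmt3 f/f tumor, with a wide gap between them. Means were 30.3 ± 4.26 CPM and 14.3 ± 2.18 CPM (SD, n = 3 each), and the log2 fold change was -1.08 with a standard error of 0.18. When single tumors were left out, it ranged from -1.19 to -0.96.

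Serpina3f, a close copy of Serpina3g that is also known from lymphoid cells, measured 8.95, 13.3 and 22.4 CPM in the Prmt3 f/f group. In the Prmt3 LKO group it measured 7.20, 7.80 and 8.59 CPM. The groups did not overlap, but Prmt3 f/f replicate 7 lay just above Prmt3 LKO replicate 94, and the Prmt3 f/f tumors were spread far more widely than the Prmt3 LKO tumors. Its log2 fold change of -0.92 (standard error 0.32) rested in part on Prmt3 f/f replicate 71, without which it was -0.50, and it was -1.19 without Prmt3 f/f replicate 7.

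Serpina3n measured 1383, 1109 and 918 CPM in the Prmt3 f/f group, and 919, 860 and 1617 CPM in the Prmt3 LKO group. The highest and the lowest of the 6 values were both in the Prmt3 LKO group, and the log2 fold change was -0.01 (standard error 0.30). It was -0.35 without Prmt3 LKO replicate 94 and 0.16 without Prmt3 LKO replicate 93.

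Serpina3k measured 3343, 4630 and 4598 CPM in the Prmt3 f/f group, and 6260, 3112 and 7789 CPM in the Prmt3 LKO group. Prmt3 LKO replicates 92 and 94 were above all Prmt3 f/f tumors and replicate 93 was below them. The log2 fold change was 0.45 (standard error 0.36), with 0.16 left when replicate 94 was taken out and 0.75 when replicate 93 was.

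Serpina3m measured 546, 586 and 407 CPM in the Prmt3 f/f group, and 497, 513 and 860 CPM in the Prmt3 LKO group. Values overlapped apart from Prmt3 LKO replicate 94, which was the highest. The log2 fold change of 0.28 (standard error 0.27) became -0.02 without that replicate.

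Among the 5 members that passed the filter, groups were apart in 2, Serpina3g and Serpina3f, both with Prmt3 LKO lower. In the whole table, 6.59% of the 13892 genes had every Prmt3 LKO tumor below every Prmt3 f/f tumor and 5.58% had the reverse, and the median log2 fold change was 0.00. As the members were picked with this contrast known, nothing is read from the comparison of these shares. The mean log2 CPM of Serpina3g and Serpina3f minus that of Serpina3n, Serpina3k and Serpina3m was -6.34, -6.28 and -5.44 in the Prmt3 f/f group and -7.25, -6.64 and -7.58 in the Prmt3 LKO group. This distance between the pair and the secreted members was wider in each Prmt3 LKO tumor than in any Prmt3 f/f tumor. Both sides of it were picked with this contrast known, so nothing is read from that separation either.

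**Figure D2:**
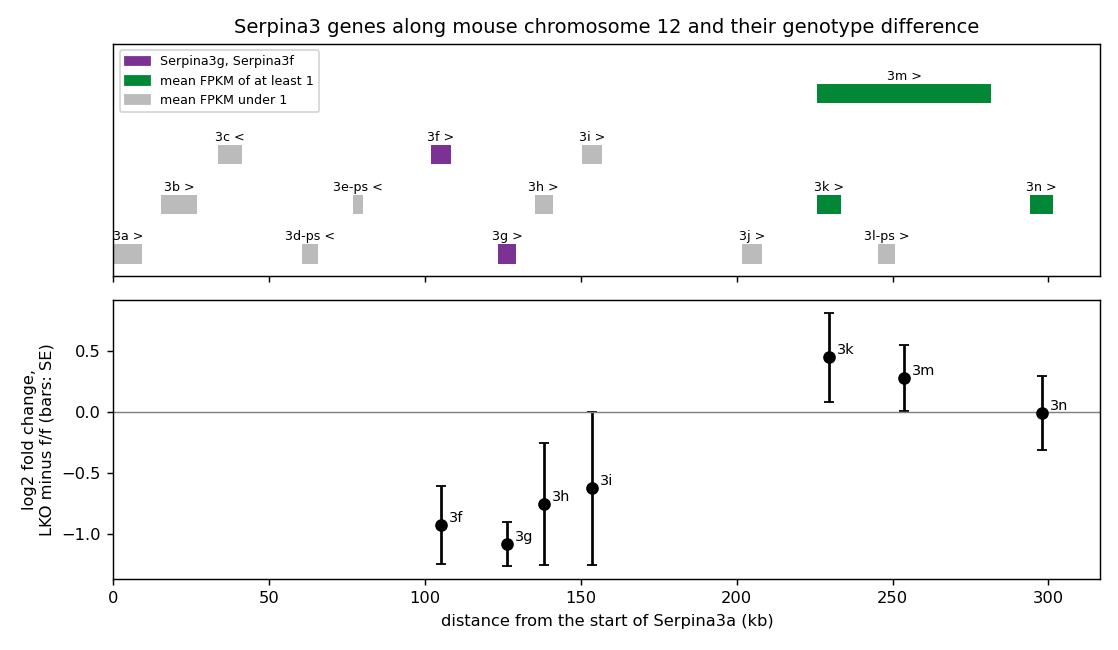
Upper panel, the Serpina3 genes by their distance in kb from the start of Serpina3a, with the direction of transcription (> plus strand, < minus strand); lower panel, log2 fold change of Prmt3 LKO against Prmt3 f/f tumors with its standard error for the genes that passed the filter. Serpina3f, Serpina3g, Serpina3h and Serpina3i, which lie side by side, have values from -1.08 to -0.63, and Serpina3k, Serpina3m and Serpina3n have values from -0.01 to 0.45.

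The genes next to Serpina3g and Serpina3f were measured at far lower levels. Serpina3h, annotated as a transcribed pseudogene, was read with 18, 18 and 24 counts in the Prmt3 f/f group and 9, 5 and 15 counts in the Prmt3 LKO group. Its groups did not overlap (log2 fold change -0.75, standard error 0.50, Benjamini-Hochberg adjusted p = 0.888, edgeR's quasi-likelihood test). Serpina3i overlapped between groups (log2 fold change -0.63, standard error 0.63, adjusted p = 0.945 by the same test). Single tumors moved both values. For Serpina3h the log2 fold change was -0.39 when Prmt3 LKO replicate 93 was left out and -1.19 when replicate 94 was. For Serpina3i it was -0.25 when Prmt3 f/f replicate 7 was left out, -0.99 when Prmt3 LKO replicate 92 was and -0.18 when replicate 94 was. Serpina3a, Serpina3b and Serpina3j had at most 7 counts in a tumor and were not tested, and the pseudogenes Serpina3d-ps, Serpina3e-ps and Serpina3l-ps likewise had at most 7.

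Reads could be shared among the copies, which bears on how far the members were measured apart. In the GENCODE M21 annotation, whose loci for these genes were those of the expression table, coding sequences of Serpina3k and Serpina3m were 91.8% identical over 1251 aligned bases, and those of Serpina3f and Serpina3g 87.4% identical over 747 bases. Serpina3m is annotated with a transcript that begins in the first exon of Serpina3k (chr12:104338486-104338545), so reads of that exon fit both genes. Of all stretches of 50 bases in the transcripts, 15.5% in Serpina3g, 10.6% in Serpina3f, 6.90% in Serpina3n, 14.04% in Serpina3k and 19.1% in Serpina3m also occurred in another Serpina3 gene. Of stretches of 150 bases, the length of a read, none did in Serpina3g, Serpina3f or Serpina3n, and 0.262% did in Serpina3k and 0.331% in Serpina3m. How reads that fit more than 1 gene were counted, and whether strand was used, is not given in the sources used here.

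The members known as interferon-gamma targets were next set beside the other genes of their pathway. Lists were written by hand with earlier results of these data known. Across all genes tested, edgeR's quasi-likelihood test called 0 (0%) in either direction at a Benjamini-Hochberg adjusted p under 0.05 with a fold of at least 2. At that fold and an unadjusted p under 0.05, 1.77% of genes were lower and 0.317% were higher in Prmt3 LKO tumors. DESeq2 called 44 genes lower (0.317%) and 10 higher (0.072%) at an adjusted p.

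Of 28 interferon-gamma targets tested, 27 had a log2 fold change below 0, where 49.9% of all genes did. Their median was -0.67, which became -0.45 without Prmt3 f/f replicate 71. In 17 of the 28 (60.7%, against 6.59% of all genes tested) every Prmt3 LKO tumor was below every Prmt3 f/f tumor. In 0 of the 28 it was the reverse, against 5.58% of all genes tested. None of these targets passed the adjusted p by edgeR, 7 were lower at an unadjusted p under 0.05 with the 2-fold limit, and DESeq2 called 5.

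The target with the lowest log2 fold change was Tgtp1, a GTPase of the immunity-related family, with 21.6, 26.0 and 52.3 CPM against 6.11, 12.0 and 9.44 CPM (log2 fold change -1.86, standard error 0.39). Cxcl9, a chemokine that draws T cells, had 91.97, 113 and 185 CPM against 27.6, 76.9 and 31.3 CPM (log2 fold change -1.52, standard error 0.44). Both were apart between groups. Iigp1, a further GTPase of this kind, overlapped between groups (log2 fold change -0.56, standard error 0.35), and Psmb9, an immunoproteasome subunit, had a log2 fold change of 0.04 (standard error 0.21).

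NF-kappaB targets, the other pathway Serpina3g is known from, had a log2 fold change below 0 in 16 of 18 genes tested and a median of -0.55. Groups were apart with Prmt3 LKO lower in 8 (44.4%, against 6.59% of all genes tested). None passed the adjusted p by edgeR, 2 were lower at an unadjusted p under 0.05 with the 2-fold limit, and DESeq2 called 1. Ccl2, a chemokine for monocytes, had 10.7, 5.50 and 5.62 CPM in the Prmt3 f/f group and 2.74, 1.80 and 2.21 CPM in the Prmt3 LKO group (log2 fold change -1.69, standard error 0.33). Vcam1, an adhesion molecule, had a log2 fold change of -0.54 (standard error 0.22), while Sod2, the mitochondrial superoxide dismutase, had 0.15 (standard error 0.21) and Bcl3, a cofactor of NF-kappaB, 0.24 (standard error 0.26).

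**Figure D3:**
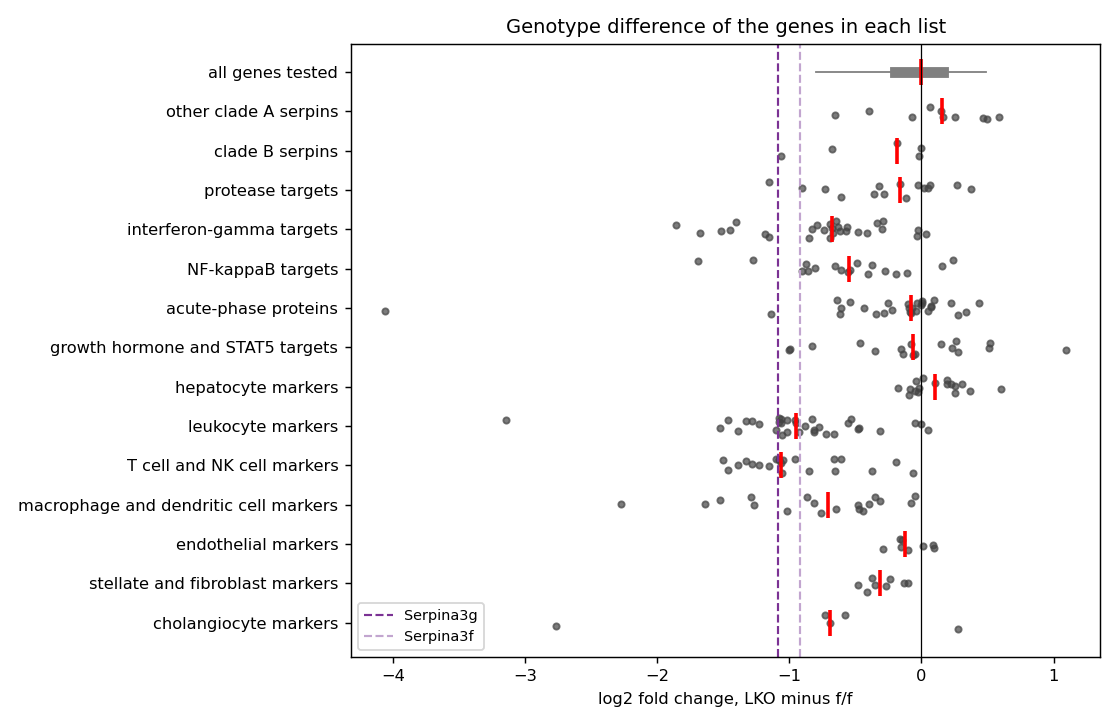
Log2 fold change of Prmt3 LKO against Prmt3 f/f tumors for each tested gene of 14 lists (points, with the median as a red bar); for all genes tested the thick bar covers the middle 50% and the thin line the range from the 5th to the 95th percentile. The dashed lines mark Serpina3g at -1.08 and Serpina3f at -0.92, which lie near the medians of the leukocyte list (-0.95) and the T cell and NK cell list (-1.06).

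Markers of leukocytes had the same direction between genotypes as Serpina3g and Serpina3f. Of 33 leukocyte markers tested, 32 had a log2 fold change below 0, with a median of -0.95. Groups were apart with Prmt3 LKO lower in 23 (69.7%) and higher in 0, against 6.59% and 5.58% of all genes tested. The summed level of the markers was 604 to 680 CPM in Prmt3 f/f tumors and 424 to 478 CPM in Prmt3 LKO tumors. None passed the adjusted p by edgeR, 11 were lower at an unadjusted p under 0.05 with the 2-fold limit, and DESeq2 called 4. None of the listed markers was at 0 in all tumors. In bulk tumor RNA, fewer leukocytes and less RNA of these genes per leukocyte cannot be told apart, and the part of the leukocyte markers in the levels of Serpina3g and Serpina3f was not tested.

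T cell and NK cell markers were below 0 in 21 of 21, with a median of -1.06. Groups were apart with Prmt3 LKO lower in 13 (61.9%, against 6.59% of all genes tested). At the unadjusted limit 9 were lower, and 0 were called by edgeR and 1 by DESeq2. Lck, the kinase of the T cell receptor, had 5.77, 5.69 and 5.66 CPM against 1.31, 3.43 and 3.31 CPM (log2 fold change -1.08, standard error 0.35). Zap70, the list's gene with the highest mean CPM, had -0.19 (standard error 0.32) and Klrk1 had -0.06 (standard error 0.39). Both of these overlapped between groups. Markers of macrophages and dendritic cells were below 0 in 18 of 18, with a median of -0.70. Groups were apart with Prmt3 LKO lower in 10 (55.6%, against the same 6.59%). At the unadjusted limit 6 were lower, and 0 were called by edgeR and 2 by DESeq2. Clec4f, which marks Kupffer cells, had a log2 fold change of -0.05 (standard error 0.28), while Marco, a scavenger receptor of macrophages, had -2.28 (standard error 0.41). Many genes of these lists, Lck and Clec4f among them, are also in the leukocyte list, so the lists are not separate results.

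Within the genotypes, Serpina3g kept closer to the interferon-gamma targets than to the means of the other lists. As the 2 genotypes form separate clusters for Serpina3g, likeness was taken on deviations from the genotype means of log2 CPM, over 6 tumors that differ in library depth and in their mix of cells, which every gene of a tumor has in common. Pearson's r was 0.91 with the mean of the interferon-gamma targets, 0.76 with T cell and NK cell markers, 0.62 with NF-kappaB targets, 0.55 with leukocyte markers and -0.06 with macrophage and dendritic cell markers. For Serpina3f it was 0.76 with growth hormone and STAT5 targets, 0.75 with acute-phase proteins and 0.71 with the interferon-gamma targets. It was 0.60 with hepatocyte markers and with endothelial markers. It was -0.08 with T cell and NK cell markers, -0.27 with leukocyte markers, -0.32 with NF-kappaB targets and -0.62 with macrophage and dendritic cell markers. Within the genotypes Serpina3f thus did not follow the markers of leukocytes. Between Serpina3g and Serpina3f, r was 0.35. Likeness to an immune list was not limited to this pair. With macrophage and dendritic cell markers, r on the same deviations was 0.92 for Serpina3n and 0.92 for Serpina3m. These values describe 6 tumors and are given with no p.

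On the log2 scale and relative to the average of the Prmt3 f/f group, single tumors stood at the same end for several of these measures. Prmt3 LKO replicate 92 was the lowest for Serpina3g (-1.35), for the interferon-gamma targets (-0.96) and for T cell and NK cell markers (-1.67), and Prmt3 f/f replicate 71 was the highest for Serpina3g (0.18), Serpina3f (0.69) and the interferon-gamma targets (0.29).

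**Figure D4:**
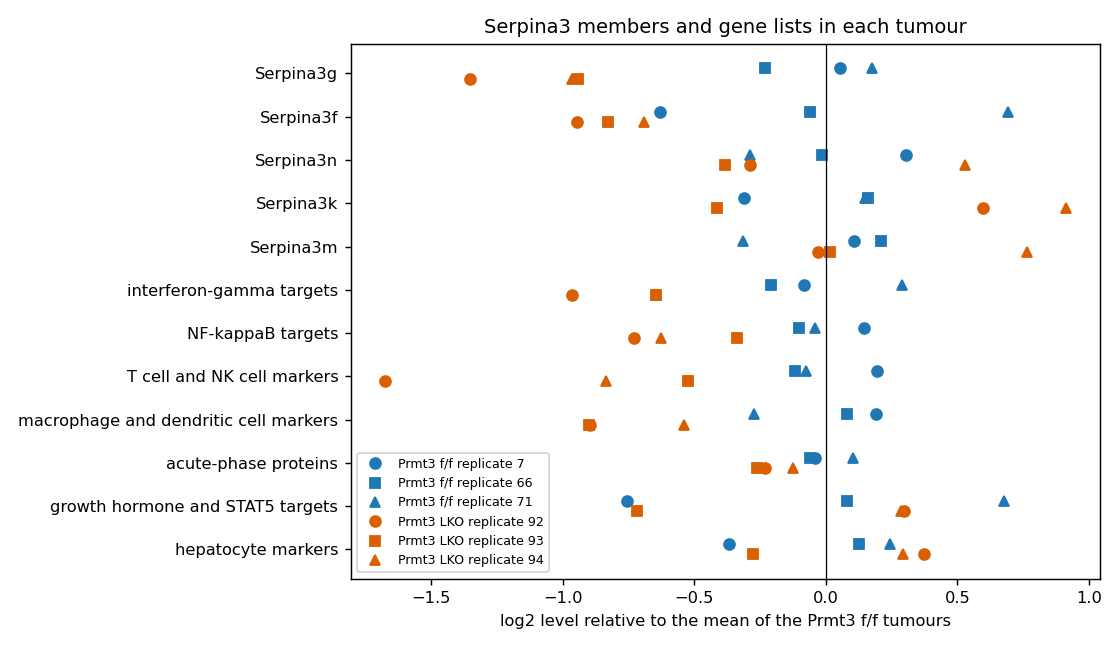
Log2 level of 5 Serpina3 members and mean log2 level of 7 gene lists in each tumor, with the Prmt3 f/f average set to 0 (blue, Prmt3 f/f; orange, Prmt3 LKO; where symbols coincide, one hides the other). For Serpina3g the Prmt3 LKO tumors lie from -1.35 to -0.94 and the Prmt3 f/f tumors from -0.23 to 0.18, whereas both genotypes are interleaved for Serpina3n, Serpina3k and hepatocyte markers.

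Profiles were ranked by the Pearson correlation of log2 CPM over all 6 tumors, among 9592 genes with a mean of at least 5 CPM. Serpina3 genes and predicted genes (symbols with Gm numbers or Rik) had been left out of these. Most like Serpina3g were Snhg1 (0.988), a host gene of small nucleolar RNAs, and Gbp5 (0.987), an interferon-induced guanylate-binding protein. Mxd1 (0.983), a partner of Max, and Ptprc (0.974), the pan-leukocyte marker CD45, came next. A total of 66 genes exceeded 0.9. The genotype difference enters these values, as groups were apart for Serpina3g. For Serpina3n the closest were Coa6 (0.984), an assembly factor of cytochrome oxidase, Hgf (0.978), hepatocyte growth factor, Dpm1 (0.969), a mannosyltransferase subunit, and Sod3 (0.965), the extracellular superoxide dismutase, with 32 genes over 0.9. Each of these had its highest value in Prmt3 LKO replicate 94, as Serpina3n did.

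Secreted members were set beside the acute-phase proteins, the class in which Serpina3n is placed. Of 29 tested, 19 had a log2 fold change below 0 and 10 above, and the median was -0.08 (-0.17 to -0.02 when single tumors were left out). Groups were apart with Prmt3 LKO lower in 1 of the 29 (3.45%, against 6.59% of all genes tested). None passed the adjusted p by edgeR, 2 were lower at the unadjusted limit, and DESeq2 called 0. The abundant C3, the central complement component, had a log2 fold change of -0.03 (standard error 0.28), and Fgb, the fibrinogen beta chain, 0.01 (standard error 0.26), close to the -0.01 of Serpina3n. Saa3, a serum amyloid that macrophages also make, stood apart from them, with 3.14, 65.96 and 15.4 CPM in the Prmt3 f/f group and 0.800, 2.03 and 2.16 CPM in the Prmt3 LKO group (log2 fold change -4.06, standard error 1.04).

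Growth hormone acting through STAT5 is a known regulator of hepatic Serpina3k, and its targets were 10 below and 7 above 0 among 17 tested, with a median of -0.07. Its direction changed with single tumors, from -0.25 without Prmt3 f/f replicate 7 and -0.17 without Prmt3 LKO replicate 92 to 0.0074 without Prmt3 f/f replicate 66, 0.16 without Prmt3 LKO replicate 93 and 0.30 without Prmt3 f/f replicate 71. None passed the adjusted p by edgeR, 1 was lower at the unadjusted limit and DESeq2 called 0. Groups were apart with Prmt3 LKO lower in 1 of the 17 (5.88%, against 6.59% of all genes tested). Mup20, a major urinary protein, had 703, 2242 and 4454 CPM against 4738, 2827 and 3038 CPM (log2 fold change 0.52, standard error 0.59). Bcl6, a repressor that opposes STAT5, was apart between groups, with 39.0, 48.5 and 57.7 CPM against 35.4, 20.0 and 17.2 CPM. As such a repressor is counted in the list, the tally and the median are not read as a direction of the pathway.

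Hepatocyte markers were 7 below and 10 above 0 among 17 tested, with a median of 0.10, no gene called by edgeR or DESeq2 and 0 at the unadjusted limit. That median had no steady direction, at -0.09 without Prmt3 f/f replicate 7, -0.03 without Prmt3 LKO replicate 92, 0.0079 without Prmt3 LKO replicate 94, 0.23 without Prmt3 f/f replicate 71 and 0.31 without Prmt3 LKO replicate 93. Alb had a log2 fold change of -0.09 (standard error 0.38), and Apoc3, an apolipoprotein, was apart with Prmt3 LKO higher at 0.60 (standard error 0.18). Groups were apart with Prmt3 LKO higher in 1 of the 17 and lower in 0, against 5.58% and 6.59% of all genes tested. Serpina3k followed the hepatocyte markers from tumor to tumor, with Pearson's r of 0.88 and Spearman's rho of 0.83 between log2 CPM and the list mean over 6 tumors, and r of 0.94 without the 2 tumors farthest from the median. With the growth hormone list, Serpina3k had r of 0.74. Serpina3n did not share this, at r of -0.04 with hepatocyte markers.

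Among the secreted members, Serpina3n and Serpina3m were the most alike (r 0.82, rho 0.77), and their r was 0.54 without Prmt3 LKO replicate 94. Serpina3k and Serpina3m, whose coding sequences are so close, had r of 0.53, which was -0.22 without the same replicate. The ratio of Serpina3k to Serpina3m in FPKM ran from 6.62 to 13.7 over the tumors, so the pair did not keep a fixed ratio.

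Other serpins of clade A, the extracellular clade to which the cluster belongs, were 3 below and 7 above 0 among 10 tested, with a median of 0.16. Groups were apart in 1 each way, where 6.59% of all genes tested had Prmt3 LKO lower and 5.58% higher. The median was 0.04 without Prmt3 f/f replicate 71 and -0.0064 without Prmt3 LKO replicate 94. Serpina1b, a form of alpha-1-antitrypsin, had a log2 fold change of 0.15 (standard error 0.33), and Serpina11 had 0.59 (standard error 0.34) with Prmt3 LKO higher and groups apart. Serpins of clade B, which like Serpina3g act inside cells, were below 0 in 5 of 5 tested, with a median of -0.19 that was 0.17 without Prmt3 f/f replicate 7. Serpinb9, an inhibitor of granzyme B, had a log2 fold change of -0.19 (standard error 0.27), and Serpinb1a, an inhibitor of neutrophil proteases, -1.06 (standard error 0.47).

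The proteases that Serpina3 members and their kin inhibit were 10 below and 5 above 0 among 15 tested. Their median was -0.16 (-0.26 to -0.06 when single tumors were left out). Groups were apart in 0 of them, where 6.59% of all genes tested had Prmt3 LKO lower and 5.58% higher. For clade A, clade B and the proteases, 0 genes were called by edgeR or DESeq2 and 0 were lower at the unadjusted limit. Ctsb, cathepsin B, had 759, 826 and 799 CPM in the Prmt3 f/f group and 825, 653 and 870 CPM in the Prmt3 LKO group (log2 fold change -0.02, standard error 0.19). Gzmb, the granzyme B of cytotoxic lymphocytes that Serpina3n inhibits, had 2.95, 1.40 and 5.27 CPM against 0.971, 1.53 and 1.81 CPM and overlapped between groups (log2 fold change -1.16, standard error 0.51).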

How the data were processed

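Paired-end reads of 150 bases were aligned by the authors to GRCm38 with Hisat2 2.0.4. StringTie 1.3.0 and bcl2fastq 2.19 are also named in the submitters' processing notes. The authors deposited, for each of 34745 genes, a count, which is a whole number of reads and not normalized, and an FPKM. All 12 value columns were used. The groups come from the genotype labels, which number the tumors without saying whether each came from its own mouse, so p-values measure the spread between these tumors. Each tumor gave 1 library, and 3 tumors per group limit the precision. The floor of 3 counts covers counting error only.

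Counts were filtered by filterByExpr (minimum count 10, minimum total 15), which kept 13892 genes, and scaled by TMM. Testing used glmQLFTest (edgeR 4.0.16, R 4.3.3), and p-values were adjusted by Benjamini-Hochberg across all genes kept. Calls needed an adjusted p under 0.05 and a fold of at least 2 or at most 0.5, the limits the study states for this comparison. DESeq2 1.42.0 was an alternative, as were no TMM, other filters, log2(FPKM + 1) and each tumor left out. CPM per tumor use TMM-scaled totals, and log2 CPM for likeness a prior count of 2. The fits were tested on simulated data. Exons and coding sequences come from GENCODE M21 and promoters from RefSeq on GRCm38.p6.

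The members, the gene lists and the comparisons were chosen with earlier results of these data known. Named genes are the members, the other Serpina3 genes, Prmt3, the 4 genes most like Serpina3g and Serpina3n, and genes of each list with the 2 highest means or the lowest and highest log2 fold change at a mean of at least 1 CPM. The counting tool, annotation release and use of strand are not given in the sources used here.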

Additional observations from a re-analysis of the deposited data

How the results depend on the processing

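The direction of Serpina3g and Serpina3f was lower in Prmt3 LKO tumors under all 12 alternatives run. Log2 fold changes were -1.19 to -0.95 for Serpina3g and -1.19 to -0.50 for Serpina3f. Both genes were picked with this contrast known and had groups apart. Leaving out a tumor or rescaling the same values could hardly turn their direction, so only the size of the change is read from this. Serpina3k was above 0 under all 12 (0.16 to 0.75), Serpina3n was below 0 in 9 of 12 (-0.35 to 0.16) and Serpina3m in 1 of 12 (-0.02 to 0.42). Over all genes, DESeq2 called 44 genes lower and 10 higher at an adjusted p, and edgeR without a filter called 2 lower. The edgeR fit used in this account called 0, and still 0 with each tumor left out. The cause of this difference between settings was not tested. For Prmt3, DESeq2 gave -1.55 with an adjusted p of 0.0035, and leaving out each tumor gave -1.80 to -1.34 with edgeR. At an unadjusted p under 0.05 with a 2-fold limit, an alternative chosen after seeing the data, 246 genes were lower and 44 higher, against 455 and 119 without a filter, 373 and 92 without Prmt3 f/f replicate 71, 103 higher without Prmt3 f/f replicate 7, 69 without Prmt3 LKO replicate 92 and 77 without Prmt3 LKO replicate 93. Serpina3h moved from -0.75 to -0.18 on log2(FPKM + 1). No paired analysis was possible because the groups share no replicate numbers. With 3 tumors per group, and 4 genes of the cluster (Serpina3a, Serpina3b, Serpina3c and Serpina3j) at or near the floor, small differences were not detectable.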

Other observations

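Cell types of the liver other than hepatocytes and leukocytes were read for the same tumors. Endothelial markers had a median log2 fold change of -0.12 over 8 genes (-0.22 to -0.03 when single tumors were left out), and Stab2, a receptor of sinusoidal endothelium, had -0.10 (standard error 0.19). Stellate cell and fibroblast markers had a median of -0.31 over 8 genes, which was 0.05 without Prmt3 f/f replicate 66, -0.60 without Prmt3 f/f replicate 71 and -0.59 without Prmt3 LKO replicate 94, with Col3a1, a fibrillar collagen, at -0.48 (standard error 0.39). Cholangiocyte markers had a median of -0.69 over 5 genes, of which 4 were below 0 and 1 above. That median was -0.39 without Prmt3 LKO replicate 93 and -0.98 without Prmt3 LKO replicate 94. Spp1, osteopontin, had 4072, 977 and 309 CPM in the Prmt3 f/f group and 339, 265 and 184 CPM in the Prmt3 LKO group. Its groups overlapped (log2 fold change -2.77, standard error 0.84). Epcam had a log2 fold change of 0.28 (standard error 0.67). No gene of these 3 lists was called by edgeR or DESeq2 or had groups apart with Prmt3 LKO lower, and 1, Spp1, was lower at an unadjusted p under 0.05 with a fold of at least 2.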
